A study of Drosophila melanogaster with 6 samples.

Results

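The genes described here are named for proteins of the cytosolic ribosome of Drosophila melanogaster. Some like forms among them are relatives of assembly proteins, as described below. The genes are all those whose array symbol starts with RpL or RpS followed by a number, or with RpLP. They number 41 of the 11982 genes that a probe set with a single gene symbol names on the array, 25 named for the large and 16 for the small ribosomal subunit. Each gene is represented by its probe set with the highest mean intensity, and other ribosomal protein genes were not analysed here. The 41 are 26 genes with a plain name, 10 numbered or lettered forms of which related copies exist (such as RpL10Aa and RpL10Ab) and 5 genes named as like forms.

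RNA of whole male larvae in the third instar, of w1118, a laboratory strain that carries a mutation of the white eye colour gene, was measured on 6 one-colour Affymetrix expression arrays. Mothers of the control group ate food with 0.15 M sucrose and mothers of the high-sucrose group food with 1 M sucrose for 7 days as virgins, and were then mated to w1118 males kept on control food. All offspring were laid and raised on food with 0.15 M sucrose at 25 C. By the treatment labels the groups therefore differ in the diet of the mother. The titles call the larvae control reared and high sugar reared, without naming the mother. Each group had 3 arrays, which the titles number as biological replicates; how many larvae were pooled for each was not given in the labels, which name both a mid and a wandering stage of the third instar. A whole larva holds many tissues, and fewer cells of a type cannot be told apart from less RNA per cell.

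Ribosomes are built from ribosomal RNA and a large set of proteins, which are made in matched amounts, since a shortage of a single protein holds up assembly of the whole subunit. In flies, loss of a single copy of many of these genes gives the Minute phenotype of slow growth and short bristles. In growing larvae the demand for ribosomes is high, and their production is set by nutrient signals through the insulin and TOR pathways and the transcription factor Myc. Several fly ribosomal protein genes have a second copy, often used mainly in the germline.

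The 41 genes fell into 2 ranges of brightness. On every array 30 of them lay above an intensity of 2000 and 11 below it, with no gene between 1029, the highest value of RpL24-like, and 2376, the lowest of RpL34a. The value of 2000 was chosen after the data were seen. The 30 bright genes were all 26 plain-named genes together with RpL10Ab, RpL34a, RpL37-1 and RpS28b. All 11 dim genes were copies or like forms. An intensity depends on the probes as well as on the transcript, so these ranges do not rank the genes by their amount of RNA.

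**Figure D1:**
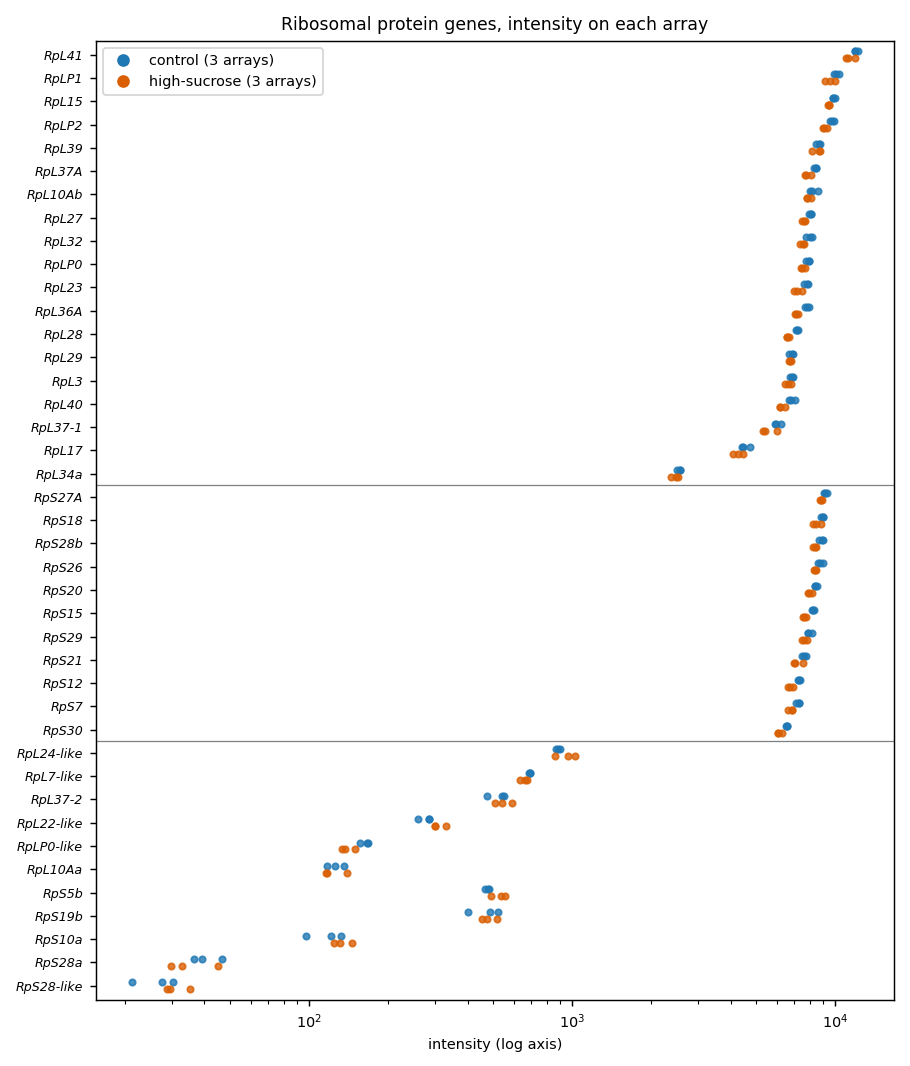
Intensity of each of the 41 ribosomal protein genes on each of the 6 arrays (log axis), with control arrays in blue and high-sucrose arrays in orange; lines separate bright large subunit genes, bright small subunit genes and the 11 genes under 2000. The bright genes lie in a narrow band, and within it most orange points lie just left of the blue ones.

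No ribosomal protein gene passed the test between maternal diets. Over all 18769 probe sets, limma with Benjamini-Hochberg adjustment called 0 of the 41 genes lower and 0 higher at an adjusted p under 0.05, beside 0.570% and 0.0533% of all probe sets. At an unadjusted p under 0.05, 8 genes were lower and 1 was higher, beside 8.80% and 3.59% of all probe sets. The 8 became 5, 1 and 2 without control arrays 1, 2 and 3, and 2, 17 and 0 without high-sucrose arrays 1, 2 and 3. All 30 bright genes nevertheless had a lower mean in the high-sucrose arrays, and 34 of the 41 genes did, beside 58.9% of all probe sets. The bright genes had log2 differences (high-sucrose minus control) from -0.13 to -0.018 with a median of -0.086, which in mean intensity is a median of -5.8% and a range of -8.64% to -1.28%. Over all probe sets the median was -0.034. In 21 of the 30 bright genes all high-sucrose arrays lay below all control arrays, a pattern that 12.6% of all probe sets showed. Among other bright probe sets it was common too: 211 of the 503 with a mean in the range of these genes showed it, and 57 of the 81 at or above their median.

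**Figure D2:**
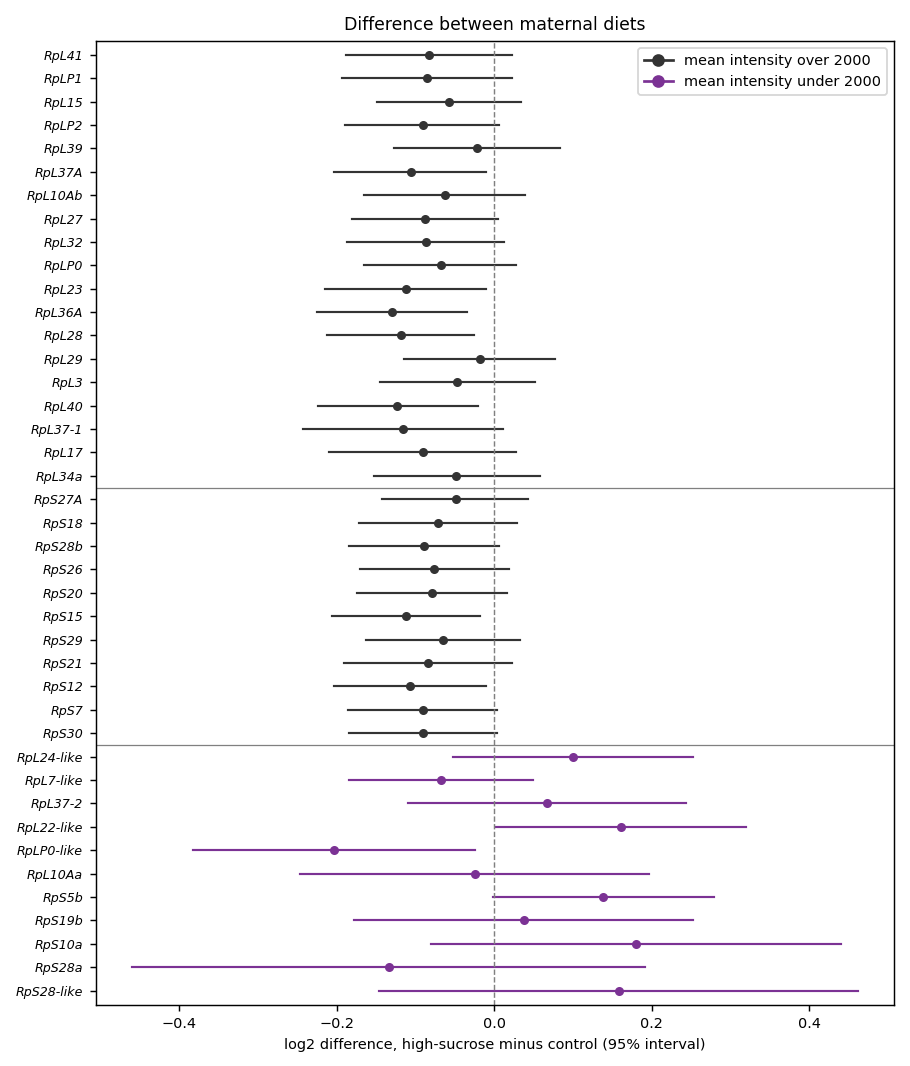
Log2 difference between high-sucrose and control arrays for each of the 41 genes with its 95% interval from limma (points and bars, n = 3 arrays per group), bright genes in grey and genes under 2000 in purple. The 30 bright genes share a side of 0, between -0.13 and -0.018, while the 11 dim genes lie on both sides with wider intervals.

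The acidic stalk of the large subunit, built from RpLP0, RpLP1 and RpLP2, recruits the elongation factors to the ribosome. RpLP0 had intensities of 7716, 7963 and 7974 in the control and 7474, 7670 and 7414 in the high-sucrose arrays, so that the difference was -0.068 ± 0.043 on the log2 scale (± SE here and in the brackets that follow; adjusted p = 0.555). RpLP1 had 9932, 10108 and 10329 in the control and 9525, 9959 and 9148 in the high-sucrose arrays, with the second high-sucrose array above the first control array. RpLP2 had 9529, 9688 and 9918 against 8955, 9333 and 9060, with no overlap between groups (-0.091 ± 0.043; adjusted p = 0.437). The 3 stalk genes thus differed from their control level by amounts close to the median of the bright genes.

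Among the other large subunit genes, RpL36A (probe set 1632962_at) had the smallest p-value of all 41. Its intensities were 7671, 7938 and 7792 in the control and 7241, 7093 and 7046 in the high-sucrose arrays, a log2 difference of -0.13 ± 0.042 (adjusted p = 0.25). All 3 high-sucrose arrays lay below all 3 control arrays, by more than the spread within either group. RpL28 had 7138, 7110 and 7235 in the control and 6542, 6698 and 6534 in the high-sucrose arrays (-0.12 ± 0.041; adjusted p = 0.275), and RpL23 had 7639, 7858 and 7835 against 7153, 7470 and 6964 (-0.11 ± 0.046; adjusted p = 0.353). Neither overlapped between groups, and neither passed. RpL37A, a zinc-binding protein distinct from RpL37, had 8337, 8462 and 8484 against 7712, 8059 and 7714 (-0.11 ± 0.043; adjusted p = 0.35).

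At the other end of the bright genes, RpL39, which lines the exit tunnel of the nascent chain, had 8754, 8708 and 8449 in the control and 8737, 8135 and 8658 in the high-sucrose arrays (-0.022 ± 0.047). RpL29 had 6831, 6939 and 6662 against 6752, 6648 and 6769 (-0.018 ± 0.042). In both genes the groups overlapped, and the 95% intervals ran from -0.127 to 0.084 for RpL39 and from -0.114 to 0.077 for RpL29. RpL3, a protein next to the peptidyl transferase centre, had 6712, 6869 and 6907 against 6600, 6790 and 6445 and overlapped as well. RpL32, long used under the name rp49 as a reference transcript in fly work, had 7740, 8036 and 8151 against 7536, 7628 and 7354 (-0.087 ± 0.044; adjusted p = 0.466). Its groups did not overlap, and its difference was close to the median of the bright genes.

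RpL40, RpS27A and RpS30 are made as fusions, the first pair to ubiquitin and RpS30 to a ubiquitin-like protein, which are split after translation. RpL40 had intensities of 6690, 6788 and 7017 in the control and 6185, 6468 and 6167 in the high-sucrose arrays (-0.12 ± 0.045; adjusted p = 0.303). RpS27A had 9125, 9269 and 9076 against 8826, 8931 and 8789 (-0.049 ± 0.041; adjusted p = 0.668). RpS30 had 6477, 6558 and 6542 against 6082, 6255 and 6053 (-0.09 ± 0.042; adjusted p = 0.425). None of the 3 overlapped between groups and none passed.

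The 11 bright small subunit genes had a median log2 difference of -0.084, and the 19 bright large subunit genes one of -0.087. RpS15 was the small subunit gene with the smallest p: 8153, 8250 and 8337 in the control and 7589, 7776 and 7526 in the high-sucrose arrays, a log2 difference of -0.11 ± 0.042 (adjusted p = 0.312). RpS12, which in flies takes part in the sensing of cells short of ribosomal proteins, had 7207, 7282 and 7354 against 6715, 6929 and 6630 (-0.11 ± 0.043; adjusted p = 0.341). In 10 of the 11 small subunit genes the groups did not overlap; RpS21 was the exception, with 7521 in the second high-sucrose array and 7460 in the first control array. The remaining bright small subunit genes, RpS7, RpS18, RpS20, RpS26, RpS28b and RpS29, had log2 differences between -0.091 and -0.065.

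The difference between groups was shared by the bright genes and by other probe sets in their range of intensity. Relative to each gene's control mean, the median log2 deviation of the 30 genes was -0.014, 0.003 and 0.012 on the control arrays and -0.086, -0.059 and -0.106 on high-sucrose arrays 1, 2 and 3. On these high-sucrose arrays 29, 30 and 29 of the 30 genes lay below their control mean, and on the control arrays 21, 13 and 10. Within the high-sucrose group the genes did not all keep 1 order: most were lower on array 1 than on array 2, and others, RpL27, RpL29, RpL34a, RpL36A, RpL39, RpL41, RpS26 and RpS29, were lower on array 2. The other 503 probe sets with a mean intensity in the same range had median deviations of -0.014, -0.006 and 0.015 on the control and -0.103, -0.054 and -0.109 on the high-sucrose arrays. Their median log2 difference was -0.083, against -0.086 for the ribosomal protein genes, and 85.3% of them were below 0. Their median intensity was 4622, against 7773 for the 30 genes. The 81 other probe sets at or above the median intensity of the 30 genes had a median log2 difference of -0.082. No test was made between the ribosomal protein genes and these probe sets.

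**Figure D3:**
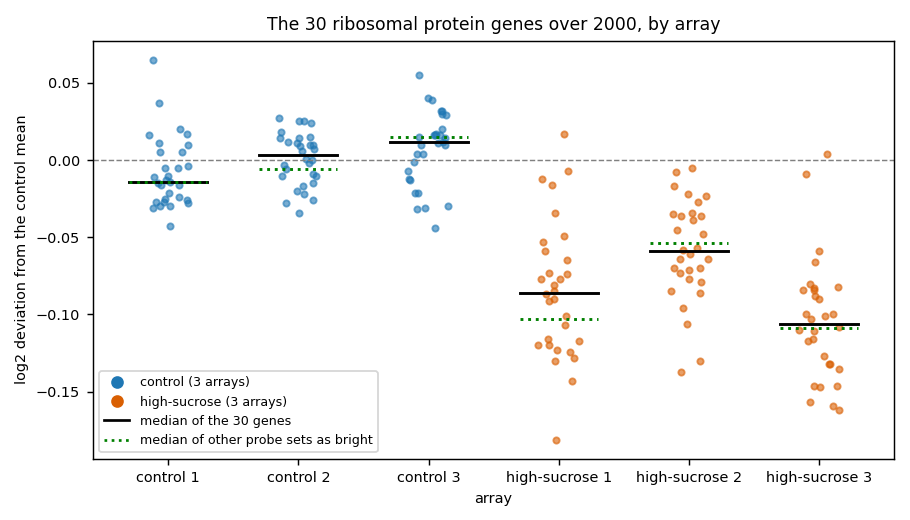
Log2 deviation of the 30 bright ribosomal protein genes from each gene's control mean on each array (points, scattered sideways only to separate them). Black bars are the median of the 30 genes. Dotted green bars are the median of the 503 other probe sets with a mean in the same range of intensity. The medians run from -0.014 to 0.012 on control and from -0.106 to -0.059 on high-sucrose arrays, and black and green bars lie close on every array.

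This common difference depended on the scaling between arrays. The upper quartiles of the arrays lay at 218.2 to 224.2 in the control and 212.8 to 216.3 in the high-sucrose group, and the intensities at the 99th percentile at 6224 to 6394 and 5752 to 6027. Over 10 equal classes of mean intensity, the median log2 difference of all probe sets was -0.034 in the dimmest, -0.023 and -0.019 in the next, -0.009 in the fourth, between -0.04 and -0.017 in the fifth to the ninth, and -0.067 in the brightest. With the arrays centred on their medians, 28 of the 30 bright genes stayed below 0, RpL29 and RpL39 did not, and the median was -0.060. With quantile scaling, which gives every array the same distribution of values, 18 of the 30 were below 0 and the median was -0.002. With cyclic loess scaling, which removes differences that follow intensity, 9 of the 30 were below 0 and the median was 0.009. Under none of these 3 scalings did limma call any of the 41 genes, at an unadjusted p under 0.05 0 were lower and 2 higher under each, and the sign of the bright genes' median depended on the scaling. Of all 41 genes, 13 changed sign under quantile scaling, 3 under median centring and 22 under cyclic loess.

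**Figure D4:**
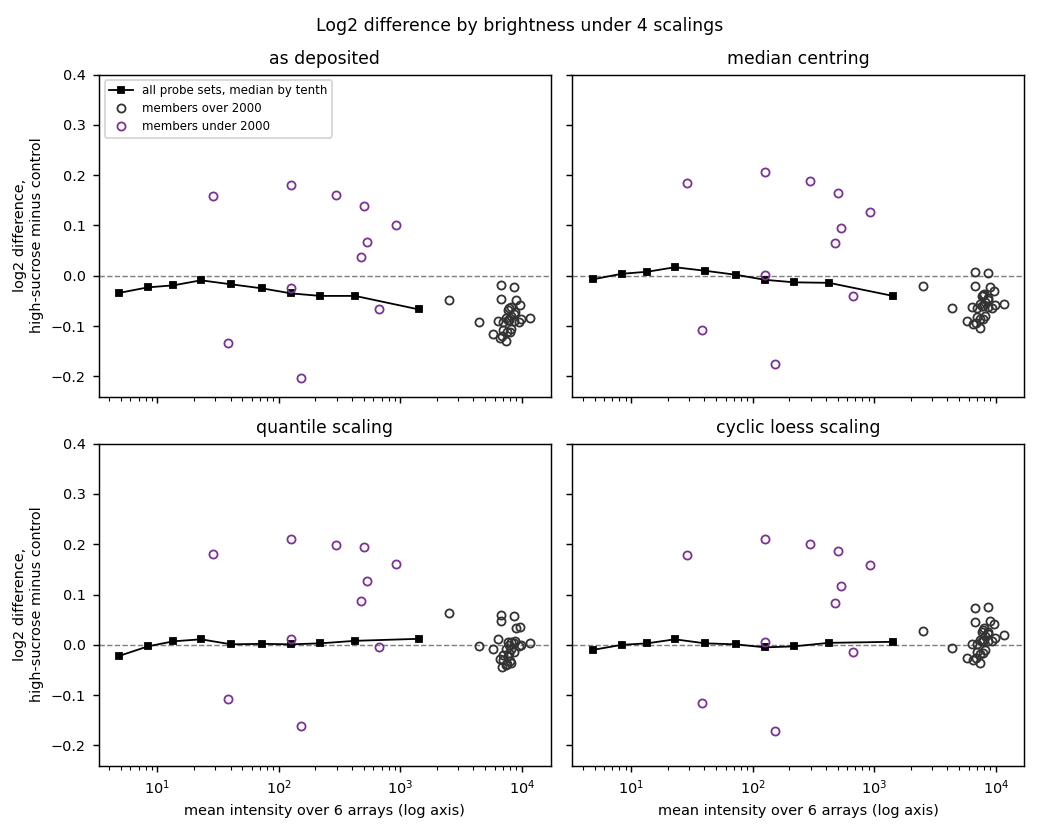
Log2 difference between high-sucrose and control arrays against mean intensity over the 6 arrays (log axis) for the 41 genes (circles; purple under 2000) and for the medians of 10 equal classes of all probe sets by brightness (black squares), under 4 scalings. As deposited the bright genes lie around -0.086, and under quantile and cyclic loess scaling they lie around 0, while most genes under 2000 stay above 0.

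The brightest gene, RpL41, lay close to the highest value of each array. RpL41 (1639614_s_at), which encodes a very short peptide of the large subunit, had intensities of 11905, 12222 and 11915 in the control and 11884, 10979 and 11183 in the high-sucrose arrays, or 90.9% to 98.6% of the highest value on the same array. The highest values of the arrays were 12783 to 13046 in the control and 11771 to 12076 in the high-sucrose group, and RpL41 ranked between the 3rd and the 8th probe set of every array. No other ribosomal protein gene reached 90% of the array maximum, and RpLP1 lay at 76.1% to 82.5% of it. On each array 27 of the 41 genes were in the top 1% of probe sets, and apart from RpL34a, RpL17, RpL37-1 and RpL41 the bright genes, 26 in number, had means between 6328 and 9833. The files hold no saturation mark, and whether signals at this level still rise in proportion to RNA was not tested. Replicates varied little at this level, with a coefficient of variation among the bright genes of 0.66% to 4.05% in the control and 0.65% to 6.81% in the high-sucrose arrays. Across the 30 bright genes, the log2 difference had a Pearson's r of -0.02 with log2 mean intensity and a Spearman's rho of 0.27; these genes share arrays and are not independent.

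The 11 dim genes showed no common direction: 7 had a higher and 4 a lower mean in the high-sucrose arrays, with a median log2 difference of 0.067. RpL22-like (1630264_at), a testis-enriched form, had intensities of 285.5, 259.9 and 285.5 in the control and 301.4, 331.4 and 301.8 in the high-sucrose arrays (0.16 ± 0.070; adjusted p = 0.399). RpS5b (1640104_at), a form enriched in the female germline, had 484.1, 467.8 and 480.7 against 534.3, 491.8 and 557.5 (0.14 ± 0.062; adjusted p = 0.41). These were the only members in which all high-sucrose arrays lay above all control arrays, which 5.96% of all probe sets showed, and neither passed. Both differences were larger under quantile scaling, at 0.20 for RpL22-like and 0.19 for RpS5b, and still did not pass.

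Other copies overlapped between groups. RpS10a had 132.4, 96.89 and 121.6 in the control and 131, 124.8 and 145.8 in the high-sucrose arrays (0.18 ± 0.12), and RpS19b, a germline form, had 521.9, 401.3 and 489.1 against 473.6, 455.3 and 515.7 (0.038 ± 0.096). The second control array was the lowest of the 6 in both genes, and also in RpL37-2 (551.2, 473.5 and 540.4 against 542.3, 508 and 591). Without that array the log2 difference was 0.066 for RpS10a, -0.069 for RpS19b and 0.001 for RpL37-2. RpL10Aa had 136.1, 117.4 and 125.8 against 117.4, 115.5 and 139.7 (-0.025 ± 0.098).

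Markers of testis and germline were read beside these copies. Of 24 measured markers, 17 had a higher and 7 a lower mean in the high-sucrose arrays, with a median log2 difference of 0.16 and summed intensities of 5892 to 6804 in the control and 6988 to 7165 in the high-sucrose arrays. At an unadjusted p under 0.05, 6 markers were higher and 1 was lower, beside 3.59% and 8.80% of all probe sets. The sperm tail gene Mst98Ca passed (555.3 ± 23.3 against 731.6 ± 46.8, mean ± SD, n = 3 each, as in the values that follow; difference on the log2 scale 0.39 ± 0.064, adjusted p = 0.0357), but leaving out any array ended the call (adjusted p from 0.0555 to 0.151). Mst98Cb, another sperm tail gene, had 229, 210.9 and 203.9 in the control and 324.4, 295.8 and 275.2 in the high-sucrose arrays (0.45 ± 0.080; adjusted p = 0.0518). It passed with quantile scaling (adjusted p = 0.0486), with median centring (0.0458) and with cyclic loess (0.0415), as Mst98Ca did, so that each of these scalings called 2 markers. ocn did not pass (0.28 ± 0.065; adjusted p = 0.119). As deposited, 1 of the 24 markers was called higher, beside 0.0533% of all probe sets. Of the 24 markers, 1 had a mean under 16, and none was at 0. The part of these markers in the values of the copies was not tested.

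The like forms other than RpL22-like and RpS28-like are relatives of yeast proteins that assemble the large subunit rather than serve in it, so the name of a ribosomal protein does not describe their role. RpLP0-like (1632263_at), a relative of yeast Mrt4, had intensities of 156.7, 166.7 and 166.2 in the control and 149.9, 136.4 and 133.1 in the high-sucrose arrays. Its log2 difference of -0.20 ± 0.079 was the lowest among the 41 genes, the groups did not overlap, and it did not pass (adjusted p = 0.334). It stayed below 0 under all 3 other scalings, from -0.18 to -0.16. RpL7-like, a relative of yeast Rlp7, had 682.5, 690.8 and 691.9 against 662, 633.3 and 674.2 (-0.067 ± 0.052). RpL24-like, a relative of yeast Rlp24, had 881.4, 895.8 and 871 against 1029, 859.4 and 961 (0.10 ± 0.068), with overlap. The 3 assembly relatives therefore did not share a direction.

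For 5 pairs of related forms the gap between the forms was followed within each array. A scaling factor common to the array cancels largely in such a gap, but a difference that follows intensity does not, since each pair sets a dim form against a bright one. RpS28b was bright, at 8700, 8947 and 9010 in the control and 8379, 8444 and 8232 in the high-sucrose arrays, while RpS28a was at 36.42, 39.18 and 46.61 against 29.96, 32.88 and 44.97 and RpS28-like at 27.46, 21.2 and 30.43 against 28.7, 29.63 and 35.12. Both dim forms lay within the dimmer part of the array, where the addition of 16 before the log2 shrinks differences. The log2 gap of RpS28-like to RpS28b was -7.72 ± 0.17 in the control and -7.47 ± 0.12 in the high-sucrose arrays (SD, n = 3 each) and did not overlap between groups. The gap of RpS28a to RpS28b was -7.30 ± 0.11 and -7.34 ± 0.23, with overlap.

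RpL37-1 was at 5971, 5923 and 6198 in the control and 5318, 6007 and 5387 in the high-sucrose arrays (-0.12 ± 0.056; adjusted p = 0.444), and its gap to RpL37-2 overlapped between groups (-3.49 ± 0.10 and -3.31 ± 0.19). This pair was added after the data were seen. RpL10Ab, a protein of the L1 stalk, was at 8129, 8056 and 8572 against 7838, 8060 and 7795 (-0.063 ± 0.045), and the gap of RpL10Aa to it was -5.86 ± 0.10 and -5.82 ± 0.15. The gap of RpLP0-like to RpLP0 was -5.46 ± 0.019 in the control and -5.60 ± 0.087 in the high-sucrose arrays and did not overlap. RpL34a, whose partner was not analysed here, was the dimmest of the bright genes at 2577, 2573 and 2495 against 2536, 2484 and 2376 (-0.048 ± 0.047). The gap of RpS28-like to RpS28b was higher by 0.247 in the high-sucrose arrays as deposited, by 0.195 with quantile scaling, by 0.247 with median centring and by 0.171 with cyclic loess. For RpLP0-like against RpLP0 the difference (high-sucrose minus control) was -0.135 as deposited, and in the same order -0.167, -0.135 and -0.197. The groups did not overlap in either pair under any of these scalings and overlapped in the other 3 pairs under each. All scalings use the same 6 arrays, and RpS28-like by itself overlapped between groups. How often other pairs of a dim and a bright probe set separate in this way was not counted. A gap shows unequal change between the probe sets of a pair and not the ratio of their transcripts.

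**Figure D5:**
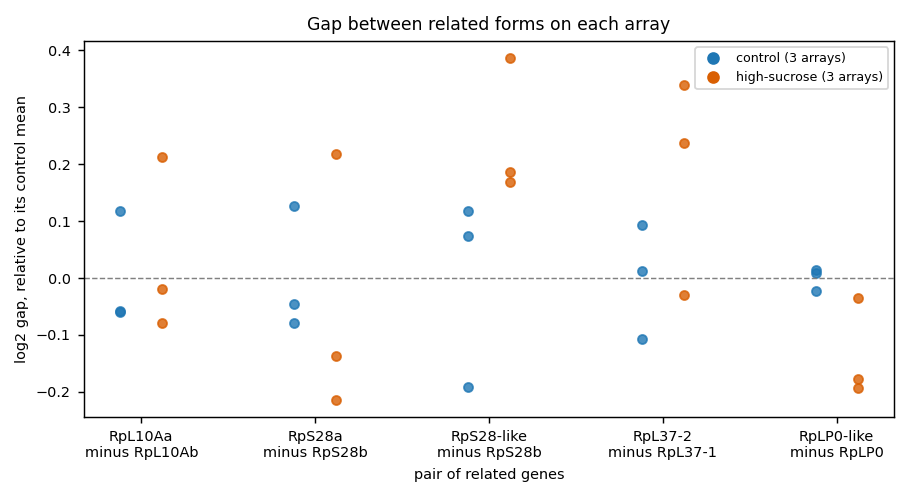
Log2 gap between related forms on each array, drawn relative to the mean gap of the control arrays (blue control, orange high-sucrose, 3 arrays each). The groups separate for RpS28-like against RpS28b, upward, and for RpLP0-like against RpLP0, downward, and overlap in the other 3 pairs.

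Probe sets of the same gene did not always give the same direction. RpS29 had 2 bright probe sets, with log2 differences of -0.065 ± 0.043 for the brighter and -0.14 ± 0.049 for the other, and a further dim one at a mean of 21.4 and 22.3. RpS30 had a second probe set at 873.8, 709.7 and 864.6 in the control and 961.9, 821.5 and 997 in the high-sucrose arrays, whose log2 difference of 0.18 ± 0.096 had the opposite sign to that of the bright one. RpL3 had 2 further probe sets at means of 93.0 and 82.5 and of 7.823 and 9.65, and RpS7 a further one at 42.2 and 58.4. None of these probe sets passed. Of the 41 chosen probe sets, 18 carry the s or a mark that Affymetrix gives to probes shared by several transcripts, and all 18 are bright; the 18 had a median log2 difference of -0.083 and the 12 bright ones without the mark one of -0.088.

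Genes that make ribosomes or work with them were read beside the ribosomal proteins. Of 28 measured genes of ribosome biogenesis, 0 passed limma, beside 0.570% of all probe sets called lower and 0.0533% called higher. The median log2 difference of the 28 was -0.015. At an unadjusted p under 0.05, 1 was lower and 2 were higher, beside 8.80% and 3.59% of all probe sets. Nle, a factor of large subunit assembly, was at 107.6 ± 14.96 and 164.9 ± 45.7 (0.53 ± 0.18; adjusted p = 0.26), and nclb at 91.1 ± 10.8 and 70.3 ± 3.53 (adjusted p = 0.272). Nopp140, a nucleolar phosphoprotein, was at 364.7, 419.1 and 369.9 in the control and 445.6, 414.9 and 453.3 in the high-sucrose arrays, with overlap (adjusted p = 0.339). Of 16 genes of RNA polymerases I and III and their regulators, which transcribe ribosomal and transfer RNA, 0 passed (median -0.049, 0 at an unadjusted p under 0.05). Both counts stand beside the shares of all probe sets given above. The smallest p-values were those of Polr1E, Polr1B and Polr3G, with log2 differences of -0.17, -0.18 and -0.095.

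Of 41 measured translation factor genes, 0 passed limma, beside 0.570% of all probe sets called lower and 0.0533% called higher. Their median log2 difference was -0.003, and 21 of the 41 were below 0. At an unadjusted p under 0.05, 1 was lower and 2 were higher, beside 8.80% and 3.59% of all probe sets. eIF3m, a subunit of the initiation factor that binds the small subunit, was at 1370 ± 28.1 and 1265 ± 30.5 (adjusted p = 0.373), eIF4G2 at 492.3 ± 24.8 and 550.4 ± 29.0 (adjusted p = 0.358), and eIF4E3, a cap-binding protein, at 479.9 ± 54.9 and 550.9 ± 10.2 (adjusted p = 0.358). Of 14 regulators of growth and ribosomal gene expression, 0 passed by limma and 0 had an unadjusted p under 0.05 (median -0.048). The same shares of all probe sets apply to these counts. Myc, Thor, Rheb and Xrp1 were not among the 14 measured. La, Irbp18 and Mnt had the smallest p-values, with log2 differences of 0.27, -0.11 and -0.11. With quantile scaling the medians were 0.031 for ribosome biogenesis, -0.022 for the polymerases, 0.065 for translation factors and 0.021 for growth regulators, so that 3 of these 4 lists changed sign.

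The 69 genes of mitochondrial ribosomal proteins, which serve the separate ribosome of the mitochondrion, were dimmer, with a median intensity of 225.1. Of these, 0 passed limma, beside 0.570% of all probe sets called lower and 0.0533% called higher. At an unadjusted p under 0.05, 5 of the 69 were lower, beside 8.80% of all probe sets. The median log2 difference of the 69 genes was -0.075, and 56 of them were below 0, beside 58.9% of all probe sets. With quantile scaling the median was -0.031 and with cyclic loess -0.034, with 43 below 0 in each. mRpL46 had the smallest p (267.3 ± 25.4 and 175.3 ± 25.1; adjusted p = 0.0606). It passed with median centring (adjusted p = 0.0311) and not with quantile scaling or cyclic loess (0.0875 and 0.0791). mRpS35 and mRpS24 followed, with log2 differences of -0.29 and -0.22 (adjusted p = 0.2 and 0.257).

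Markers of other tissues were read in the same arrays. All 6 measured fat body markers were below 0 (median -0.11, or -0.016 with quantile scaling), and 0 passed. Their summed intensity was 45811 to 47697 in the control and 42705 to 43926 in the high-sucrose arrays. These markers are bright, with means of 4935 to 11936. Of the 503 other probe sets in the range of the bright ribosomal protein genes, 85.3% were below 0, with a median of -0.083. Of 9 midgut markers 2 fell, beside 0.570% of all probe sets called lower. These were the maltase gene Mal-A1 (adjusted p = 0.00788) and the amylase relative Amyrel (adjusted p = 0.0209). Neither passed without control 2 (0.0797 and 0.13), and Amyrel also did not without control 3 (0.0941) or high-sucrose 3 (0.0582). The midgut list had a median of -0.33, with 8 markers below 0 and 1 above (0.43). Its sums were 36019 to 37345 in the control and 30539 to 32177 in the high-sucrose arrays. The medians were 0.20 over 8 glue genes of the salivary gland, 0.004 over 8 muscle genes and -0.054 over 11 haemocyte markers. Of the haemocyte markers, 7 were below 0 and 4 above. He fell (adjusted p = 0.0282, but 0.056 to 0.135 without any 1 array), beside 0.570% of all probe sets called lower. Pxn was higher without overlap between groups (log2 difference 0.20) and did not pass (adjusted p = 0.28). The sums of the glue, muscle and haemocyte lists overlapped between groups. The part of these tissues in the values of the ribosomal protein genes was not tested.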

How the data were processed

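Probe set values of 6 arrays were deposited by the authors as linear intensities, 1 per probe set and array. Neither the labels nor the table state how probes were summarised, corrected for background or scaled. Per the labels' protocols, cRNA was made from 2 ug of total RNA. No scaling was added, and 183 control probe sets were left out, leaving 18769. Of these, 13647 carry 1 gene symbol in the platform table; 3 probe sets that pair a ribosomal protein gene with another gene were not used. Differences were tested on log2(intensity + 16) with limma 3.58.1 in R 4.3.3, with variances that follow intensity (4 residual and 5.16 prior degrees of freedom), over all probe sets, with Benjamini-Hochberg adjustment at 0.05. "Rose" and "fell" mean passing that test. Intervals are 95%. They use variances drawn in part from other probe sets of like intensity, so they do not measure the spread between these arrays alone. The number of arrays limits the precision, and whether replicates are separate cultures is not stated beyond their titles.

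The members and lists were chosen with earlier results of these data known. Genes are named as all called members, the 10 smallest p, the 5 highest and lowest differences, the 5 brightest and dimmest, all copies and like forms, and up to 3 genes by smallest p per list, with all called. The other bright genes shown (RpL3, RpL29, RpL32, RpL39, RpS7, RpS18, RpS20, RpS21, RpS26, RpS29, RpS30) were chosen after their values were seen. A listed testis name and Pes, of ribosome biogenesis, matched only synonyms of unrelated genes and were left out, Pes after its values were seen. Same-numbered arrays of the groups did not deviate together (correlations -0.0719, 0.0249 and -0.014), so no block was used. The method was tested on simulated data with changes in probe sets brighter than the median. Of log2 changes of 0.2, 3.8% were recovered, and of those of 0.4, 50.8%, with 6.2% of all calls false. The simulated noise was independent between probe sets, without the shared difference of bright probe sets seen in these arrays. The share of false calls therefore need not hold for these data. The recovered shares are over all such probe sets and were not found for the bright genes alone. The 41 genes had log2 differences from -0.203 to 0.18, so 0 calls among them does not show that they did not change. Alternatives were 3 scalings, 2 pseudocounts, a filter on low intensity, a variance prior without trend, a replicate block, other choices of probe sets and each array left out.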

Additional observations from a re-analysis of the deposited data

How the results depend on the processing

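In every alternative run, 0 of the 41 ribosomal protein genes were called lower and 0 higher; the smallest adjusted p was 0.0896, with only the upper 50% of probe sets by mean (39 members kept), where 16 members were lower at an unadjusted p under 0.05. Without high-sucrose 2, 17 were lower at that p, and without high-sucrose 3, 0 were. The median log2 difference of the members was -0.079, and -0.001 under quantile scaling, -0.052 under median centring and 0.014 under cyclic loess; of the bright genes it was 0.009 under cyclic loess. Pseudocounts, the filter, the variance prior, the block and the other choices of probe sets kept the members' median between -0.083 and -0.068.

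Over all probe sets, 107 were lower and 10 higher. With quantile scaling there were 76 lower and 17 higher calls, with centring on the median 110 lower and 23 higher, and with cyclic loess 85 lower and 17 higher. Without the intensity trend 3 were lower and 1 higher. With the replicate block 59 were lower and 4 higher, and no member's call changed; of the called genes of the other lists, He (adjusted p = 0.0714) and Mst98Ca (0.107) did not pass with it. He did not pass under quantile (0.0775) or cyclic loess scaling (0.0686), and none of these or Mal-A1 and Amyrel passed without the intensity trend (0.136 to 0.238). Leaving out each array gave 11 to 154 lower and 2 to 9 higher calls.

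The sign changed in 13 of the 41 genes under quantile scaling, 22 under cyclic loess and 3 under median centring. For quantile scaling and cyclic loess the values of the genes named by rule follow, and for median centring those of all 3. Under quantile scaling the log2 difference was 0.011 for RpL10Aa, 0.005 for RpL10Ab, 0.036 for RpL15, 0.064 for RpL34a, 0.004 for RpL41, 0.005 for RpLP0 and 0.034 for RpS27A. Under cyclic loess it was 0.006 for RpL10Aa, 0.033 for RpL10Ab, 0.041 for RpL15, 0.027 for RpL34a, 0.019 for RpL41, 0.026 for RpLP0, 0.014 for RpLP1, 0.007 for RpLP2, 0.048 for RpS27A and 0.007 for RpS28b. Under median centring it was 0.002 for RpL10Aa, 0.008 for RpL29 and 0.005 for RpL39. The gap of RpL10Aa to RpL10Ab, 0.038 higher in the high-sucrose arrays, was -0.027 under cyclic loess; the other 4 pairs kept their direction under the 3 scalings. Leaving out each array moved RpL10Aa between -0.103 and 0.023 and RpS19b between -0.069 and 0.114. Quantile and cyclic loess scaling remove an array-wide difference of bright probe sets by construction; other causes were not tested.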
